A study of Mus musculus with 2 samples.

Results

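The genes described here encode splicing factors and heterogeneous nuclear ribonucleoproteins (hnRNPs), measured in long-term haematopoietic stem cells (LT-HSC) with and without WASH, an activator of branched actin assembly on endosomes. They were found by name on the array, as every gene whose name begins with Sfrs or Srsf and a digit, Snrp, Sf3a or Sf3b, U2af, or Hnrnp. This gave 60 genes of the 24171 named on the array, covered by 144 of its 44170 sequences. Each gene is represented by its brightest sequence, the one with the highest mean log2 intensity, and its other sequences serve as a check. The study hybridised 1 Cy3-labelled array per genotype, both from LT-HSC of C57/BL6 mice sorted from femoral bone marrow by flow cytometry. The control is labelled wild type and the other sample WASH knockout, and the knockout allele, the age and the number of pooled animals are not given in the sources used here. With no replicates, no difference below was tested against variation between animals, and no standard error or p-value can be given.

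Introns are removed from pre-mRNA by the spliceosome, a machine of small nuclear RNAs and proteins. Rings of Sm proteins, encoded by Snrp genes, hold the small nuclear RNAs. U2AF marks the end of the intron, and SF3A and SF3B, parts of the U2 particle, lock onto the branch point. SR proteins, with domains rich in arginine and serine, mostly favour inclusion of the exons they bind, and hnRNPs often oppose them. In blood this machinery is known for recurrent mutations of SF3B1, U2AF1 and SRSF2 in myelodysplastic syndromes, and SRSF1, hnRNP A1 and hnRNP A2/B1 are known targets of MYC.

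The arrays had nearly the same median intensity over all sequences, 136.9 on the control and 137.5 on the knockout array, and probes of random sequence read 71.3 on the control and 75.7 on the knockout array. A gene was taken as in the detected range when, on 1 array or both, its intensity exceeded that array's median. Washc1, the targeted gene, read 119 and 107 with its single sequence, outside that range, and so does not check the genotype label. The list of 16 genes fixed to check for LT-HSC includes Cd34 and Cd48, which are low or absent on these cells in mice and were both in the detected range. Cd34 read 746 and 1105, and Cd48 read 152 and 50.6. Of the other 14 genes, 10 were in the detected range, and Procr, Tek and Fgd5 were at or below the random-sequence level on both arrays. Of 14 erythroid markers measured, 13 were higher in the knockout, and the list's summed intensity was 18404 on the control and 90943 on the knockout array. Granulocyte and monocyte markers were lower in 11 of the 15 in the detected range, with sums over 18 genes of 142932 and 56731. In these sums S100a8 alone read 47334 and 16696. Higher with their brightest sequence were 4: Csf1r (248 and 563), Ly6c2 (402 and 617), Itgam (133 and 225) and Cebpe (158 and 162). Of these, Csf1r was lower with 1 of 2 detected sequences and Itgam with 2 of 3. Elane, Prtn3 and Csf3r were outside the detected range. No splicing gene is in these lists. The part of these other cells in the differences of splicing genes was not tested, and fewer cells of a type cannot be told apart from less RNA per cell.

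Splicing factor and hnRNP genes were lower more often than higher on the knockout array, mostly by less than 2-fold. Of the 60 genes, 55 were in the detected range (91.7%, against 67.2% of all genes), 6 of them through 1 array only. These 6 were Sfrs9, Snrpb2, Sfrs3 and U2af2 through the control array, and Sf3a1 and Snrpd1 through the knockout array. Of the 55, 36 (65.5%) had the lower value in the knockout and 19 the higher one. The share lower among all 16245 genes in the range was 48.3%. The median log2 difference, knockout minus control, was -0.29, beside 0.03 for all genes in the range. Without any filter 38 of 60 had the lower measured value and the median was -0.27. Of these 60, 2 were at or below the random-sequence level on both arrays, which gives no direction. A difference of at least 2-fold was seen in 6 of the 55 (10.9%), against 13.7% of all genes. At least 2-fold lower were 5 genes (9.09%, against 7.29% of all genes), and 1 was at least 2-fold higher (1.82%, against 6.41%). Of the 5, Sfrs9 and Snrpb2 were in the detected range through the control array only. When genes were kept by their mean over both arrays, 3 of 53 were at least 2-fold lower (5.66%, against 6.1% of 14748 genes) and 1 at least 2-fold higher (1.89%, against 5.08%), while 34 (64.2%) were lower by any amount, against 48.3%. The share at least 2-fold lower was thus a little above that of all genes under 1 filter and a little below it under the other, while the share lower by any amount was above that of all genes under both. Among the 42 splicing genes above the 75th percentile of an array, 29 (69.0%) were lower, against 48.8% of the 9475 genes there. Of these 42, 3 were at least 2-fold lower and 1 at least 2-fold higher, where the shares of all such genes were 7.13% and 5.68% (12.8% together).

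**Figure D1:**
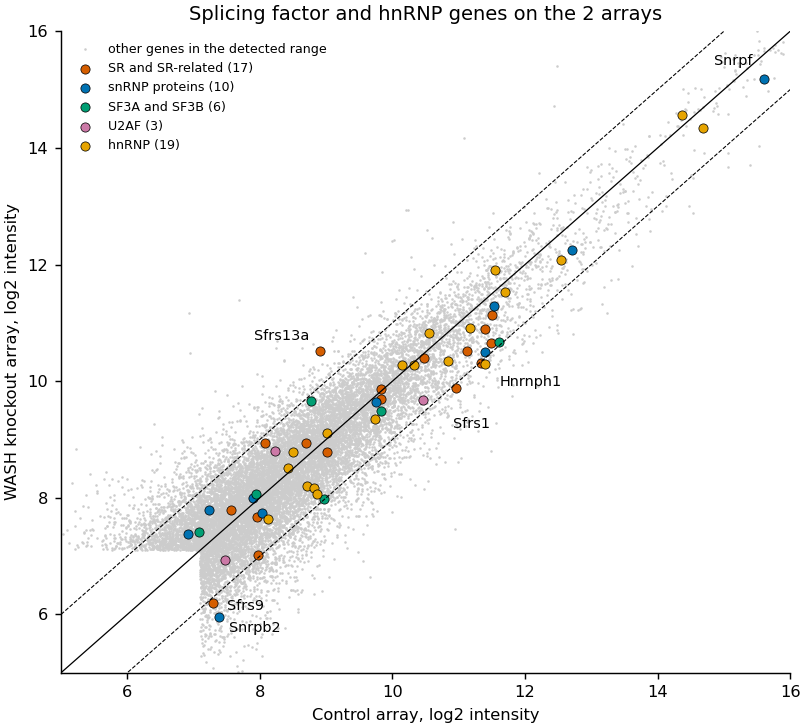
Log2 intensity of the brightest sequence of each gene on the control array (x axis) and the knockout array (y axis), with splicing genes coloured by role and other genes in the detected range in grey. The solid line marks equal values and the dashed lines a 2-fold difference; 36 of 55 coloured points lie below the solid line, and Sfrs13a is the only one above the upper dashed line.

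**Figure D2:**
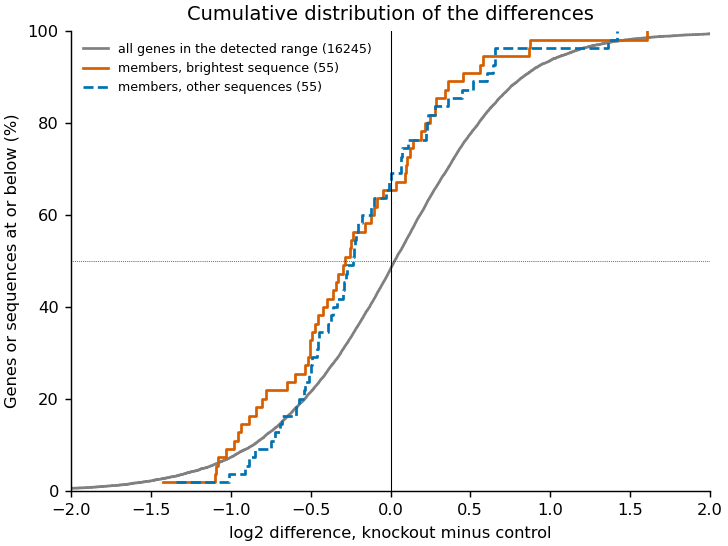
Share of genes or sequences (y axis, %) at or below each log2 difference, knockout minus control (x axis). The curves of the brightest sequences and of the other sequences of splicing genes cross 50% at -0.29 and -0.24, to the left of the curve of all genes at 0.03. Their lowest differences were -1.43 and -1.34, and that of all genes was -3.47, outside the axis drawn. All genes are a far larger set, so these lowest values do not compare the sets. Differences are as measured, and those of -1.43 and -1.34 have a knockout reading below the random-sequence level.

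The other sequences of these genes, which played no part in the values above, were also lower more often than higher. Of 84 other sequences, 55 were in the detected range, with 37 lower and a median of -0.24, where 51.5% of the other sequences of all genes were lower and their median was -0.03. Across the 31 splicing genes with several sequences in that range, all sequences were lower in 12 (38.7%) and all higher in 2 (6.45%). Among the 4969 such genes on the array these shares were 22.7% and 23.1%. Sequences disagreed in direction in the remaining 17. The spread between sequences of 1 gene, as a pooled SD of log2 differences, was 0.48 for splicing genes and 0.66 for all genes, so a single difference of the size of the median lies within it. These sequences share 2 arrays and are not replicates.

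Promoter sequence is given as a description of these genes, and a link to their differences was not tested. RefSeq (GRCm38.p6) gave the 250 bases before the start for 52 of the 60 genes, and 4 motifs were searched on both strands: GGGCGG (GC box), CCGGAAG (an ETS-type motif), CCAAT and CACGTG (an E-box, the motif bound by MYC). The ETS-type motif was in 17 of 52 genes (32.7%), against 11.9% of 11086 genes in the detected range and 6.91% of all 32851 promoters. The 52 include genes outside the detected range, and 16 of the 17 were in it. The GC box was in 67.3%, against 52.3% and 32.7%, CCAAT in 46.2%, against 39.9% and 33.8%, and the E-box in 9.62%, against 8.70% and 6.02%. Among splicing genes in the detected range, 12 of 16 with the ETS-type motif were lower (median -0.36) and 20 of 33 without it (median -0.16). For the GC box these were 22 of 34 with it (median -0.27) and 10 of 15 without (median -0.24). For CCAAT they were 16 of 23 (median -0.34) and 16 of 26 (median -0.18), and for the E-box 4 of 5 (median -0.34) and 28 of 44 (median -0.25). None of these splits was tested. Shown are Sfrs1 (chr11:88047123-88047372, plus strand), Snrpb2 (chr2:143062819-143063068, plus strand) and Sfrs12 (chr13:103774609-103774858, minus strand), all lower in the knockout, and Sfrs13a (chr4:135855821-135856070, plus strand), the 1 gene 2-fold higher. Capitals mark the motifs, which do not overlap here, and none of these windows holds CACGTG. Sfrs12 was lower by less than 2-fold with its brightest sequence (-0.84). Hnrnph1, Sfrs15 and Sfrs9, at least 2-fold lower, have the GC box and no ETS-type motif, and their windows are not shown. The windows shown were chosen after the values were seen, so they do not compare lower with higher genes. A match is a description of the sequence, not of binding.
Sfrs1: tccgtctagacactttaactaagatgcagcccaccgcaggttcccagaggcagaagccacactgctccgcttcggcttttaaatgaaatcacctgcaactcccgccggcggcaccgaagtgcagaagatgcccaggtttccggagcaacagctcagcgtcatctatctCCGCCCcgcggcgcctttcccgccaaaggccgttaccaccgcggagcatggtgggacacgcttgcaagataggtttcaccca
Snrpb2: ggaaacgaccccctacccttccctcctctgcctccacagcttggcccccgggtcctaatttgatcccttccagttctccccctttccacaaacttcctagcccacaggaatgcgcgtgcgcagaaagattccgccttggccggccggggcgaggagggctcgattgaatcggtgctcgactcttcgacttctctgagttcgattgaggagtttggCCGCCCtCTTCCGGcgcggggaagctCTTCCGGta
Sfrs12: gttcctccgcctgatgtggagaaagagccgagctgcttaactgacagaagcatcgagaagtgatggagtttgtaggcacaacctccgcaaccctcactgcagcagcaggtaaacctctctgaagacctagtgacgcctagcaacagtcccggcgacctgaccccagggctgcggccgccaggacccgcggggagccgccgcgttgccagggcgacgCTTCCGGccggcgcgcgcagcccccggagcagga
Sfrs13a: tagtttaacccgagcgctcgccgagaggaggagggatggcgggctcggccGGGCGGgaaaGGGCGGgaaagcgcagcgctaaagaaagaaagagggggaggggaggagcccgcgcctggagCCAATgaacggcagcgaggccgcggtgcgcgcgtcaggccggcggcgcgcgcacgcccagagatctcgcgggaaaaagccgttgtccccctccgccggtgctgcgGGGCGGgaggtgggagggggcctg

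SR proteins and their relatives, 17 of the 55 splicing genes in the detected range, held 4 of the 6 with a 2-fold difference. Of all genes in the range 13.7% had a difference of that size. Of 18 genes with an Sfrs name, 17 were in the detected range. The median was -0.29, with 12 genes (70.6%) on the lower side and 5 on the higher, where 48.3% of all genes in the range were lower. Of these 17, 9 are named Srsf in RefSeq, with 6 lower and a median of -0.51. The other 8 carry other names there, with 6 lower and a median of -0.26. Sfrs1 (Srsf1, chromosome 11, 87861208 to 87864995, MM9), the founding SR protein, which promotes use of nearby splice sites, read 1995 in control cells and 943 in knockout cells (-1.08). Here and below, paired values are intensities, control first, and values in brackets are log2 differences, knockout minus control. Its other sequence read 1383 and 969 (-0.51), so both were lower. Sfrs9 (Srsf9, chromosome 5, 115777185 to 115783089) read 156 and 73.5, the latter below the random-sequence level, which makes it at least 2.07-fold lower on its 1 sequence. Sfrs3 (Srsf3), the smallest SR protein and one that also serves mRNA export, read 252 and 130 (-0.96). It was in the detected range through the control array only, and its other sequences were outside that range. Sfrs7 (Srsf7) read 2225 and 1472 (-0.60), and its other detected sequence 981 and 845 (-0.22). Sfrs4 (Srsf4) read 2696 and 1898 (-0.51) with 1 sequence. Both were thus lower, by less than 2-fold.

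Among SR-related genes, Sfrs12 (Srek1, chromosome 13, 104531692 to 104554035) read 2882 and 1608 (-0.84), and its second detected sequence read 177 and 69.5, the latter below the random-sequence level, which makes it at least 2.33-fold lower. Sfrs15 (Scaf4, chromosome 16, 90229384 to 90242975), which binds the tail of RNA polymerase II, read 2596 and 1272 (-1.03). That sequence covers the last part of the gene's span, from 75.4% to the end. A gene's span here is the stretch between the outermost positions of its sequences on the array. The 2 other detected sequences of Sfrs15, 1 of them over the whole span, differed by only -0.22 and -0.10. The fourth, below the random-sequence level in the control at 34.0, read 88.7 in the knockout. Sfrs18 (Pnisr) read 2905 and 2261 (-0.36) with its 1 detected sequence of 5. Sfrs2ip (Scaf11) was lower with both sequences (-0.29 and -0.12). Sfrs14 (Sugp2) read 905 and 831 (-0.12), and 4 of its 5 detected sequences were lower, over a range of -0.54 to 0.07. Sfrs5 (Srsf5), an SR protein and not a relative, read 1427 and 1347 (-0.08), with its 3 sequences on both sides of 0, from -0.45 to 0.28.

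Sfrs13a (Srsf10, chromosome 4, 135412006 to 135414893), an SR protein that turns into a splicing repressor when it loses its phosphates, was the 1 gene at least 2-fold higher. Its brightest sequence read 479.6 and 1459.7 (1.61, or 3.04-fold). This sequence covers only the first 20.9% of the gene's span. The sequence from 0.58% to 70.5% of the span read 162 and 134 (-0.27), and the third, from 41.2% to the end, was below the random-sequence level on both arrays. Only the brightest of its 3 sequences was higher. Sfrs12ip1 (Srek1ip1), an interactor of Srek1, read 269.9 and 493 (0.87), with its other sequences outside the detected range. Sfrs11 (Srsf11) read 911 and 934 (0.04) with the brightest of its 6 sequences, 468 and 332 (-0.49) with the second detected one and 86.2 and 231 (1.42) with the third. Its sequences thus disagreed in direction. Sfrs8 (Sfswap), known for regulating its own splicing, read 518 and 439 (-0.24) with its brightest sequence and was higher with the others (0.36 and 0.65). Sfrs2 (Srsf2) was at 0.22 and Sfrs16 (Clasrp), a partner of the SR kinase Clk4, at 0.25. Sfrs6 (Srsf6) stayed under the random-sequence level in both samples.

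**Figure D3:**
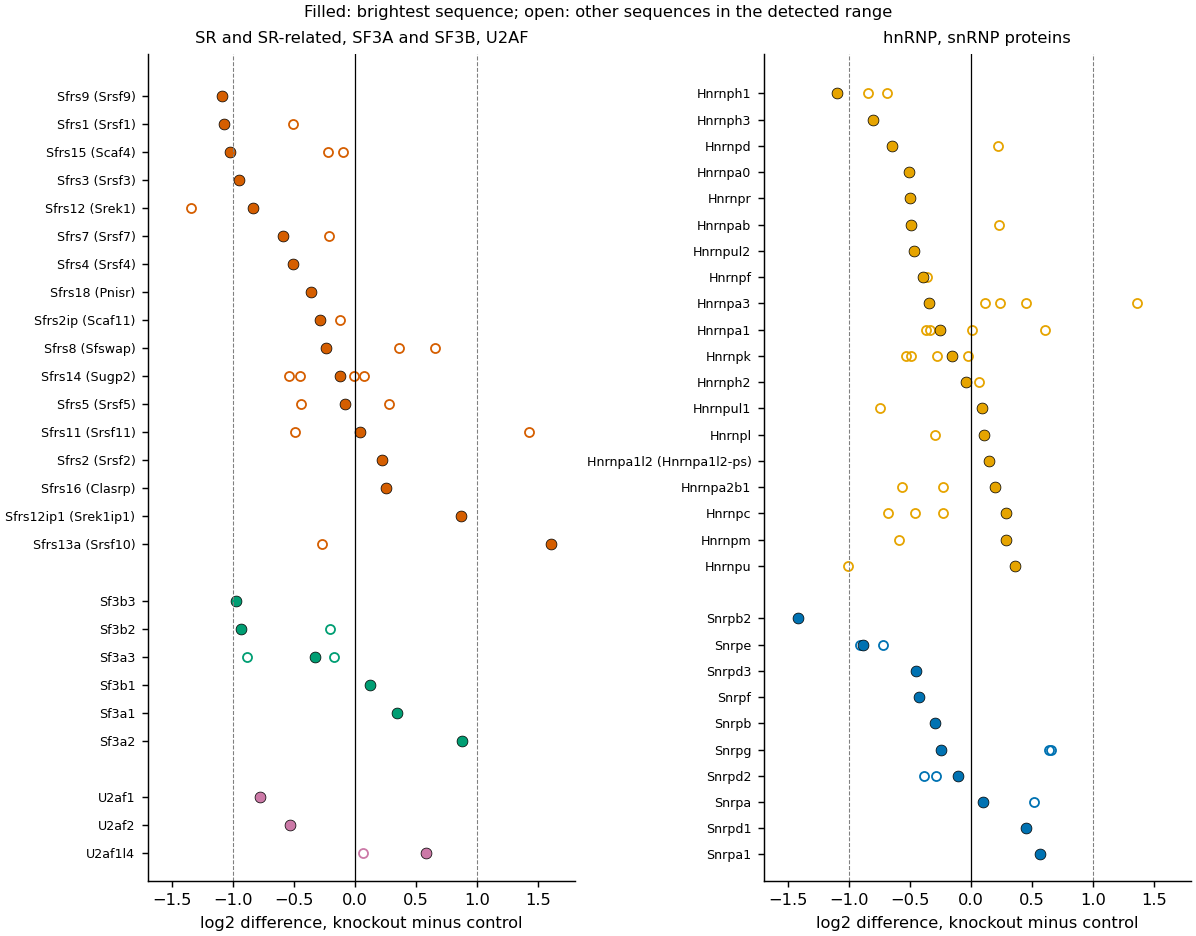
Log2 difference, knockout minus control (x axis), for each splicing gene in the detected range, by role, with current RefSeq names in brackets. Filled points are brightest sequences and open points other detected sequences; all points of Hnrnph1, Snrpe and Sfrs1 lie left of 0, while those of Sfrs13a and Hnrnpa3 lie on both sides. Points are measured differences, and those of Sfrs9, Snrpb2 and the lower point of Sfrs12 have a knockout reading below the random-sequence level.

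The ring of Sm proteins was lower in 6 of 7 genes with their brightest sequences, with a median of -0.30. Of all genes in the detected range 48.3% were lower. Snrpe (chromosome 1, 135500454 to 135506799) read 2687 and 1454 with its brightest sequence (-0.89), 2011 and 1219.6 with the next (-0.72), and 1758 and 934 with the last (-0.91). All 3 sequences were lower by similar amounts. Snrpd3 read 6694 and 4876 (-0.46) and Snrpf 49707 and 36998 (-0.43), the latter with 1 detected sequence, and Snrpb read 262 and 212 (-0.30). Snrpd2 read 862 and 801 (-0.11), and all 3 of its sequences were lower, down to -0.39. Snrpg read 2963 and 2501 (-0.24), but its other sequences were higher (0.64 and 0.65). Snrpd1 was the 1 ring gene higher with its brightest sequence, at 121 and 166 (0.45). It was in the detected range through the knockout array only.

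The U1 and U2 particle proteins of the Snrp names lay on both sides. Snrpb2 (chromosome 2, 142888785 to 142897476), the U2 protein that grips the small nuclear RNA together with Snrpa1, read 166 and 61.9, below the random-sequence level in the knockout, and was at least 2.20-fold lower on its 1 sequence. Its partner Snrpa1 was higher, with 150 and 222 (0.56), and Snrpa of U1 was higher with both sequences (0.10 and 0.52). Snrpc, the U1 protein at the 5′ splice site, was outside the detected range at 126 and 54.8, at least 1.66-fold lower. Snrpn, an imprinted paralogue of Snrpb used mainly in brain, was below the level of the random-sequence probes in both samples. Over all 12 Snrp genes 9 had the lower measured value, among them Snrpn, whose readings give no direction. Over the 10 in the detected range 7 (70%) were lower, with a median of -0.27. The share lower of all genes was 48.3%, both in that range and without the filter.

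Branch-point and 3′ splice-site factors were mixed. The 6 SF3A and SF3B genes in the detected range split evenly, 3 on each side of 0. Their median was -0.10, which turned to 0.14 when the 2 dim ones were kept. Of the 3 higher, Sf3a1 was in the range through the knockout array only. With the filter on the mean of both arrays 6 genes also remained, with a median of -0.10. Sf3b2 (chromosome 19, 5273931 to 5284408) read 3108 and 1623 (-0.94) with a sequence that the array's annotation describes as having an apparent retained intron. It read 214 and 185 (-0.20) with a sequence from the first part of its span. Sf3b3 read 500 and 254 (-0.98), while its other sequence, outside the detected range, was at 78.2 and 91.6. Sf3a3 read 904 and 719 (-0.33), and all 3 of its sequences were lower, from -0.89 to -0.18. Sf3b1, which contacts the branch point, differed little, at 245 and 267 (0.12), with a sequence also annotated with an apparent retained intron. Its other sequence, outside the detected range, read 54.2 and 80.3, the former below the random-sequence level. Sf3a2 was higher, at 439 and 805 (0.88), with 1 sequence, and Sf3a1 was at 135 and 171 (0.34). The other sequence of Sf3a1, outside the detected range, read 87.4 and 28.3, the latter below the random-sequence level. Sf3b4 and Sf3b5 were not in the detected range. U2af1, which reads the AG at the end of the intron, was at 1416 and 823 (-0.78), and U2af2, which binds the pyrimidine tract before it, at 178 and 123 (-0.54). Each had 1 sequence, and U2af2 was in the detected range through the control array only. U2af1l4, a relative of U2af1, read 299.955 and 447 (0.58) and was higher with its other sequence too (0.07), the first of them also annotated with a retained intron.

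All 19 hnRNP genes were in the detected range. Their median was -0.26, and 12 of them (63.2%, against 48.3% of all genes in the range) had the lower value in the knockout. A 2-fold difference was seen in 1 of the 19, while 13.7% of all genes in the range had one. This was Hnrnph1 (chromosome 11, 50190595 to 50200030), which binds runs of G. It read 2690.3 and 1257 (-1.10), 2107 and 1170 (-0.85), and 995 and 615 (-0.69) with its 3 sequences. All were lower. Of its relatives, Hnrnph3 read 465 and 266 (-0.80) and Hnrnpf was lower with both sequences (-0.40 and -0.36), while Hnrnph2 was near 0 with both (-0.04 and 0.07). Hnrnpk, which binds C-rich RNA, read 3305 and 2956 (-0.16), and all 5 of its sequences were lower, from -0.54 to -0.03. Hnrnpr read 1834 and 1294 (-0.50) with its 1 detected sequence of 3. Hnrnpul2 (-0.47) and Hnrnpa0 (-0.51) each had 1 detected sequence. Hnrnpd was at -0.65 and Hnrnpab at -0.49 with their brightest sequences, and higher with the others (0.22 and 0.23).

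The A/B group, the classical opponents of SR proteins, lay on both sides of 0. Hnrnpa1, which counters Srsf1 in the choice of 5′ splice sites, read 2308 and 1932 (-0.26), with 3 of its 5 detected sequences lower and a range of -0.37 to 0.61. Hnrnpa2b1 read 21114 and 24151 with its brightest sequence (0.19), and was lower with the others (-0.57 and -0.23). Hnrnpa3 read 26458 and 20849 (-0.34), but all 4 other sequences were higher, by 0.11 to 1.36. The Hnrnpa1l2 entry, a pseudogene in RefSeq, was at 0.14. Hnrnpa1 and other hnRNP and Sm genes have near-identical processed copies, and which of them the probes read is not known here. Hnrnpc, which binds uridine tracts, read 362 and 439.8 (0.28) with its brightest sequence and was lower with the 3 other detected ones. Hnrnpm read 1500 and 1825 (0.28) with its brightest sequence and 1077 and 715 (-0.59) with the other detected one. Hnrnpu, a nuclear scaffold protein, read 2993 and 3837 (0.36) with a sequence over the first 58.6% of its span. It read 299 and 148 (-1.01) with a sequence over nearly the whole span. Hnrnpl and Hnrnpul1 were at 0.10 and 0.09, and both were lower with their other sequence (-0.30 and -0.75).

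Other genes of the pathway were also lower more often than higher. In 7 further lists, 82 of 128 genes in the detected range (64.1%, against 48.3% of all genes) had the lower value in the knockout, with a median of -0.19. Of the 128, 10 were at least 2-fold lower (7.81%, against 7.29% of all genes) and 3 at least 2-fold higher (2.34%, against 6.41%). All 3 higher ones and some of the lower ones, named below, were in the range through 1 array only. Medians were -0.15 for 52 other spliceosome proteins, -0.55 for 9 LSm proteins and -0.54 for 7 kinases of SR proteins. They were -0.20 for 34 other splicing regulators and -0.20 for 15 exon junction and cap-binding proteins. The median was -0.15 for 9 genes of the survival motor neuron complex, which assembles Sm rings. Of the 9 LSm proteins, all but Lsm14a belong to the ring of U6 or a ring for mRNA decay. The 2 genes with the older names Hnrpdl and Hnrpll had a median of -0.01. Among kinases, Clk1, which phosphorylates SR proteins, read 204 and 32.5 and was at least 2.70-fold lower on 1 sequence, and Clk4 was lower with all 3 sequences, from -1.41 to -0.84. Dyrk1a, another kinase, read 133 and 315 (1.24) and was higher with both sequences. Sfpq, an RNA-binding protein of paraspeckles, read 7022 and 3402 (-1.05), with all 3 sequences lower, and Snrnp200, the helicase that unwinds U4 from U6, read 348 and 123 (-1.51). Snrnp25, of the minor spliceosome, read 734 and 302 (-1.28), and Srrm1, an SR-related coactivator of splicing, 216 and 95.0 (-1.19). Khdrbs3, a splicing regulator of the STAR family, read 661 and 309 (-1.10) and was lower with both sequences. Clns1a, which hands Sm proteins to the assembly complex, read 370 and 108 (-1.78), and Lsm4 read 243 and 118 (-1.04). Lsm14a, a protein of mRNA processing bodies, read 638 and 292 (-1.12), but 1 of its 3 detected sequences was slightly higher (0.08). Prpf19, the ubiquitin ligase of the active spliceosome, was higher, with 86.6 and 354 (2.03). Mbnl2, a muscleblind-type regulator of exon choice, was below the random-sequence level in the control and at least 3.36-fold higher. Clk1, Snrnp200, Srrm1, Clns1a and Lsm4 were in the detected range through the control array only. Prpf19, Mbnl2 and Dyrk1a were in it through the knockout array only. The 2-fold shares of these lists thus depend on that filter, and shares with a filter on the mean of both arrays are not given for them.

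**Figure D4:**
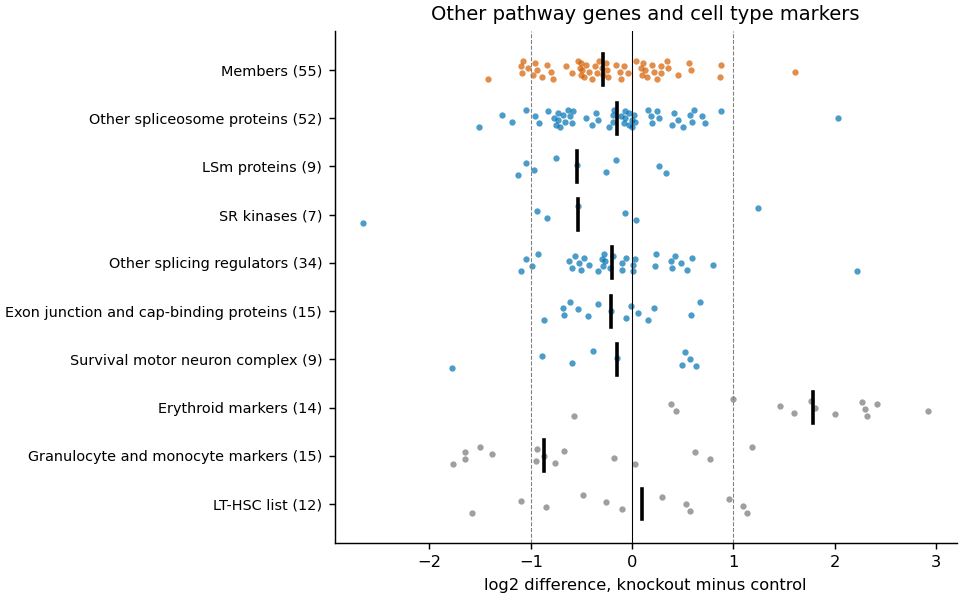
Log2 difference, knockout minus control (x axis), of each gene in the detected range, for the splicing factor and hnRNP genes (members), the other pathway lists and the cell type markers, with medians as black bars and the number of genes in brackets. The list of 2 older names is not drawn. Medians of the other pathway lists lie between -0.55 and -0.15, those of erythroid and of granulocyte and monocyte markers at 1.78 (1.68 with genes below the random-sequence level on 1 array set to it) and -0.87. Points are measured differences, also where 1 array read below that level.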

How the data were processed

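The authors deposited 1 intensity per sequence and array on a linear scale, made with RMA per the submitters' processing notes (version not given in the sources used here). RMA pulls array distributions together, so a shift of most genes would not be visible. Per the file headers and columns, sequences were mostly summarised from 3 probes and placed on MM9. A deposited column named as a standard error was not used, since its scale is not stated. Intensities were turned into log2 values with no further scaling. Gene names were updated by gene ID through the RefSeq table (all 60 genes matched, 19 renamed). The 2-fold size (log2 difference of 1) stands in place of a test. Where 1 array read at or below its random-sequence probes (5000 of them), that level replaced the value in the fold given, which is a bound. Counts, medians, curves and points used the measured values unless stated otherwise. The number of arrays limits the precision. Sequences of different genes have different probes, so levels were not compared between genes.

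Genes named are those at 2-fold or more, the 2 brightest per role, those with 3 or more sequences, those whose sequences disagree with 1 at 2-fold, and Snrpn, and from the other lists up to 4 genes each at 2-fold or more; other genes are examples chosen after their values were seen. Members and lists were chosen with earlier results of these data known. Alternatives were the deposited series table (34219 sequences), centring, quantile normalization, loess (span 0.3), an offset of 50, the mean or dimmest sequence, filters and sizes. Steps ran in Python 3.11.15 with statsmodels 0.14.6 and were tested on simulated data.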

Additional observations from a re-analysis of the deposited data

How the results depend on the processing

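No paired analysis was possible because a single array stands for each genotype. The median of the splicing genes (-0.29) was negative in each alternative computed for it (all but the sizes, which do not enter a median), from -0.16 when sequences were averaged to -0.30 with quantile normalization. The SF3 median (-0.10) turned to 0.14 with no filter on dim genes; the medians of the other 4 roles kept their sign in the alternatives computed for them, which leave out the sizes and the removal of pseudogene, chimeric and retained-intron sequences. Against 5 genes at least 2-fold lower, 3 were so with the series table, with the offset, with the 75th percentile filter and with a filter on the mean of both arrays (added after seeing the data), 2 with the mean of sequences, 2 with the dimmest sequence, 14 at 1.5-fold and 0 at 3-fold. Against 1 gene at least 2-fold higher, none (0) was so with the mean of sequences and 3 at 1.5-fold. With the mean of sequences Sfrs15 (Scaf4) turned to 0.00723, a value near 0. With the dimmest sequence the measured differences were 1.38 for Sfrs15 and -0.24 for Sfrs13a (Srsf10), but the first sequence was below the random-sequence level in control cells, which leaves at least 1.24-fold, and the second was below it in both samples, which gives no direction. Of the 6 genes at 2-fold, 2 (Snrpb2 and Sfrs9, with 1 sequence each) were so with the mean or the dimmest sequence. With 1 sequence these settings repeat the brightest value, so these 2 could not drop out. They were the 2 not counted with the series table, the offset (-0.95 and -0.74) and the 75th percentile filter. Over all genes, against 1042 higher and 1185 lower, the counts were 573 and 735 with the offset, 3004 and 2972 at 1.5-fold, 242 and 280 at 3-fold, 538 and 676 above the 75th percentile, and 677 higher with the mean of sequences. Leaving out the pseudogene and sequences annotated as chimeric or with a retained intron, also added after seeing the data, left the median at -0.29. A larger size or a narrower filter leaves fewer genes to count.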
